A study of Rattus norvegicus with 6 samples.

Results

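The genes described here encode the proteasome, the protease that degrades ubiquitin-tagged proteins, together with its activators, its inhibitor and its assembly chaperones. They were chosen with earlier results of these data known. Membership was set by name alone, as every symbol formed by Psm, a letter from a to g and a number. This gave 47 of the 12121 genes listed for the cells. The RNA came from C6, an established rat glioma line grown in DMEM with fetal bovine serum and antibiotics. In 3 libraries (C6-AQP1) the cells overexpressed Aqp1, a water channel gene carried by a pCDH vector with a CMV promoter. The other 3 libraries (C6 control) were labelled as control C6 cells. The study's other assays used a control line with the empty vector (C6-Pcdh), and the sources used here leave unclear if the sequenced C6 samples were that line. They do not state if the C6-AQP1 line was 1 clone or if replicates were grown separately. The p-values are therefore set against a spread between libraries that could be technical alone.

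The core particle of the proteasome is a barrel of stacked rings. The outer rings are built from alpha subunits (Psma genes) and the inner rings from beta subunits (Psmb genes), and Psmb5, Psmb6 and Psmb7 carry the peptide-cutting sites. Interferon can induce Psmb8, Psmb9 and Psmb10, which take the places of Psmb5, Psmb6 and Psmb7 in the immunoproteasome, a form known for making peptides for antigen presentation. The regulatory particle that caps the barrel binds ubiquitin chains, removes them and unfolds the substrate with a ring of ATPases (Psmc genes) and a set of further subunits (Psmd genes). Psme genes encode other caps, Psmf1 an inhibitor, and Psmg genes chaperones that assemble the core. The transcription factor Nfe2l1 is known to raise proteasome genes together when proteasome activity is low.

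The files gave RSEM expected counts, which summed to between 19054251 and 52725877 per library, with replicate 1 the shallowest of both groups. Aqp1 itself had 347, 352 and 349 normalized CPM (counts scaled to library size, with TMM factors) in the control replicates 1, 2 and 3, and 1052, 1064 and 1057 in the C6-AQP1 replicates, 3.03-fold higher on average and higher in each library with the label. The counts do not separate introduced from endogenous Aqp1. All 6 of the glial markers looked for were listed, among them Gfap, S100b and Vim, and their sum ranged from 4230 to 4312 CPM in control and from 6004 to 6214 in C6-AQP1 libraries. Of 8 microglial and macrophage markers only Cd74 was listed, at 0 to 0.0387 CPM in control and 0.804 to 1.02 in C6-AQP1 libraries, and of 6 T and B cell and 5 endothelial markers none was listed, in a gene list that had been limited by expression. Of 5 neuronal markers, Tubb3 and Snap25 were listed, with a sum of 4.76 to 5.51 CPM in control and 7.07 to 7.68 in C6-AQP1 libraries. The part of these shifts in the results was not tested. In bulk RNA, fewer cells that express a gene and less RNA of it per cell cannot be told apart.

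Proteasome genes were lower in C6-AQP1 cells almost without exception. Of the 47 genes, 45 fell, 1 rose and 1 did not pass the test, where a call was an adjusted p under 0.05 from edgeR's quasi-likelihood test over all listed genes. The falls were moderate and mostly alike in size. The median log2 fold change was -0.68, so that a typical member stood at 62.5% of its control level, and the interquartile range of the members was -0.82 to -0.50. For all listed genes the median was 0.00 and the interquartile range -0.40 to 0.47. Changes passed the test for 81.5% of all listed genes, and 40.7% of all listed genes fell, against 95.7% of the proteasome genes. Most members are abundant, and among the 4492 genes with a mean of at least 50 CPM the share that fell was 51.2%, while 36 of the 37 proteasome genes at that level fell. A fall of more than 2-fold was seen for 4 members and for 4.35% of all listed genes, and a rise of more than 2-fold for 0 members and 9.74% of all listed genes. Among all listed genes 14.1% passed 2-fold in either direction. The 4 members were Psmb10, Psmc3, Psmc3ip and Psmb6. The next were Psma7 and Psmb4, just inside 2-fold, with log2 fold changes of -0.98 and -0.97.

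**Figure D1:**
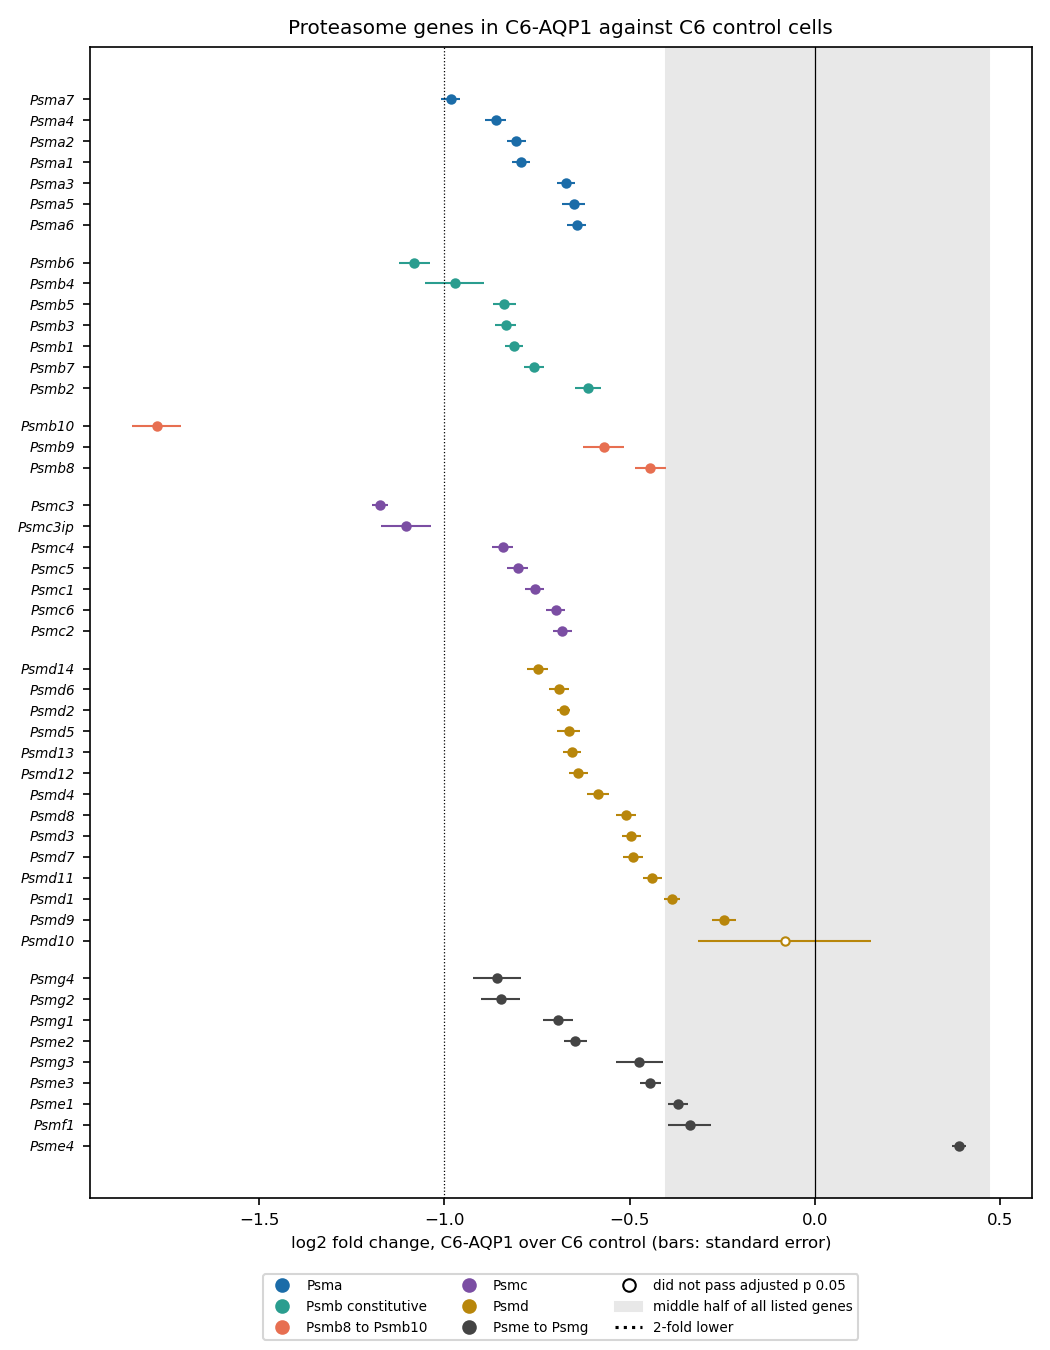
Log2 fold change of each of the 47 proteasome genes, C6-AQP1 over C6 control, with its standard error, by gene group. Points left of 0 are lower in C6-AQP1. Psmb10 lies farthest left at -1.78 and Psme4 alone lies to the right of 0, at 0.39, while the grey band gives the interquartile range of all listed genes, from -0.40 to 0.47.

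Together the 47 genes took 0.752%, 0.751% and 0.744% of the counts in the control replicates 1, 2 and 3, and 0.512%, 0.498% and 0.496% in the C6-AQP1 replicates. All C6-AQP1 libraries were below all control libraries, and the mean went from 0.749% ± 0.00424 to 0.502% ± 0.00898 (SD, n = 3), 1.49-fold lower. The exact two-sided permutation test over libraries gave p = 0.10, which is the smallest value that 3 libraries against 3 can give. For 46 of the 47 genes the libraries of the 2 groups did not overlap, the exception being Psmd10. Of all listed genes, 82.5% did not overlap in either direction and 41.3% did not overlap with C6-AQP1 lower.

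**Figure D2:**
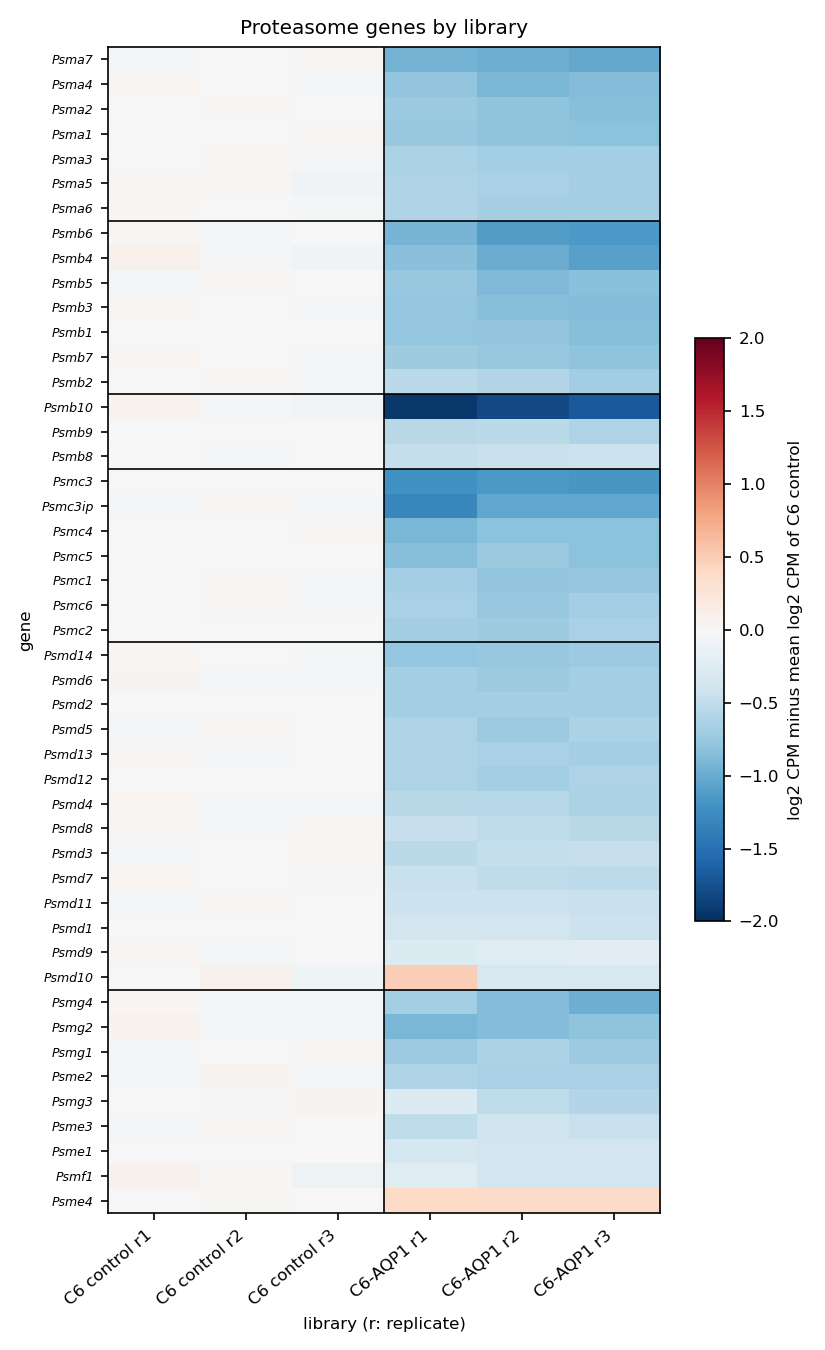
Level of each proteasome gene in each library, as log2 CPM minus the mean log2 CPM of the 3 control libraries (colour). Rows are genes, divided by lines into Psma, constitutive Psmb, Psmb8 to Psmb10, Psmc, Psmd, and Psme to Psmg. The control columns are near 0 throughout and the C6-AQP1 columns are blue (lower), except for Psme4, and for Psmd10 in C6-AQP1 replicate 1.

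The promoters of these genes are shown for 3 genes of the cutting sites and for the one gene that rose. RefSeq promoter windows, 250 bases before to 50 after the transcription start on the GRCr8 assembly, were found for 43 of the 47 genes. The 120 bases before the start follow, from 5′ to 3′, and capitals mark the matches on either strand that lie wholly within the printed bases.
Psmb5 (chr15:32047380-32047499, minus strand): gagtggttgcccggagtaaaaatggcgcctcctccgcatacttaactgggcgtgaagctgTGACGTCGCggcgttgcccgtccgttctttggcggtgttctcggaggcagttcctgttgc
Psmb7 (chr3:42827471-42827590, minus strand): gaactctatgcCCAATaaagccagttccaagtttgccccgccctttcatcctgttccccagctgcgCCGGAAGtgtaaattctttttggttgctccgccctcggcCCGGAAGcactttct
Psmb10 (chr19:50743293-50743412, minus strand): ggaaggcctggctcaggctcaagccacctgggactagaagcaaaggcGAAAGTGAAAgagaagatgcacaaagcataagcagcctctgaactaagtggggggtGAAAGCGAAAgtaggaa
Psme4 (chr14:108706523-108706642, plus strand): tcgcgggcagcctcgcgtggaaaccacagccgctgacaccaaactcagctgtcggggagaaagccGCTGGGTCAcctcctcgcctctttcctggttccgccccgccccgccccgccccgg
In Psme4 a further match, to the ETS motif CCGGAAG, begins in the last printed bases and runs past the start, and is not in capitals. The capitals in Psmb5 and Psme4 mark the antioxidant response element TGACNNNGC, which Nfe2l1 and Nfe2l2 are known to bind. It was present in the windows of 8 of the 43 genes (18.6%) and in 14.5% of the 9664 windows of listed genes. The 8 genes were Psma3, Psmb2, Psmb5, Psmb6, Psmd1, Psmd3, Psmd9 and Psme4, and their log2 fold changes ranged from -1.08 to 0.39. The capitals in Psmb10 mark the interferon-stimulated response element, searched as GAAA, any 2 bases and GAAA, and found in 7 of the 43 windows (16.3%) and in 2.93% of those of listed genes. Those 7 genes, Psma4, Psmb3, Psmb8, Psmb10, Psmd7, Psme2 and Psmg4, had log2 fold changes from -1.78 to -0.44. In Psmb7 the capitals mark a CCAAT box and 2 copies of CCGGAAG, a motif of ETS factors. CCGGAAG was present in 15 of the 43 windows (34.9%) and in 17.9% of those of listed genes, and CCAAT in 22 (51.2%) and 38.1%. The gamma-activated site TTCNNNGAA was found in 4 (9.30%) and 6.69%. Both strands were searched, and in Psmb2 the CCAAT box shares a base with the antioxidant response element. A match describes the sequence alone, and binding was not measured.

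The 7 alpha ring genes, Psma1 to Psma7, all fell, by a narrow range of log2 fold changes from -0.98 to -0.64 with a median of -0.79. Only 8.53% of all listed genes lay within this range. Psma7 fell most of this group. It had 177, 180 and 182 CPM in control and 93.6, 91.4 and 88.7 in C6-AQP1 replicates 1, 2 and 3. The groups were far apart compared with their spread, with a log2 fold change of -0.98 ± 0.03 (SE, adjusted p = 1.0e-18 in edgeR). Psma6 fell least, from 226, 219 and 215 CPM to 145, 139 and 139 (log2 fold change -0.64 ± 0.03 SE, adjusted p = 8.4e-16 in edgeR). Psma4, Psma2 and Psma1 had log2 fold changes of -0.86, -0.81 and -0.79, and Psma3 and Psma5 of -0.67 and -0.65.

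The 7 constitutive beta ring genes fell as well, with a median log2 fold change of -0.83 and a range from -1.08 to -0.61. Among them are the genes of the cutting sites. Psmb5, of the chymotrypsin-like site that is the main target of proteasome inhibitor drugs, had 129, 133 and 131 CPM in control and 77.1, 70.7 and 73.3 in C6-AQP1 replicates. The groups did not overlap (log2 fold change -0.84 ± 0.03 SE, adjusted p = 2.2e-16 in edgeR). Psmb6, of the caspase-like site, had 89.4, 87.0 and 88.0 CPM in control and 46.1, 40.5 and 39.7 in C6-AQP1 replicates. It had the greatest fall of the group, to 2.12-fold below control (log2 fold change -1.08 ± 0.04 SE, adjusted p = 1.9e-14 in edgeR). Psmb7, of the trypsin-like site, had 213, 209 and 202 CPM in control and 127, 122 and 119 in C6-AQP1 replicates (log2 fold change -0.76 ± 0.03 SE, adjusted p = 1.5e-16 in edgeR). The ring members without a cutting site were lower too, with log2 fold changes of -0.97 for Psmb4, -0.83 for Psmb3, -0.81 for Psmb1 and -0.61 for Psmb2. Psmb2, which fell least, had 105, 106 and 103 CPM in control and 72.2, 69.5 and 64.4 in C6-AQP1 replicates. Psmb4 was the least even, with 143, 129 and 126 CPM in control and 74.5, 66.8 and 62.5 in C6-AQP1 replicates, and replicate 1 was highest in both groups. Its adjusted p of 1.3e-04 from edgeR was the largest of the core genes.

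**Figure D3:**
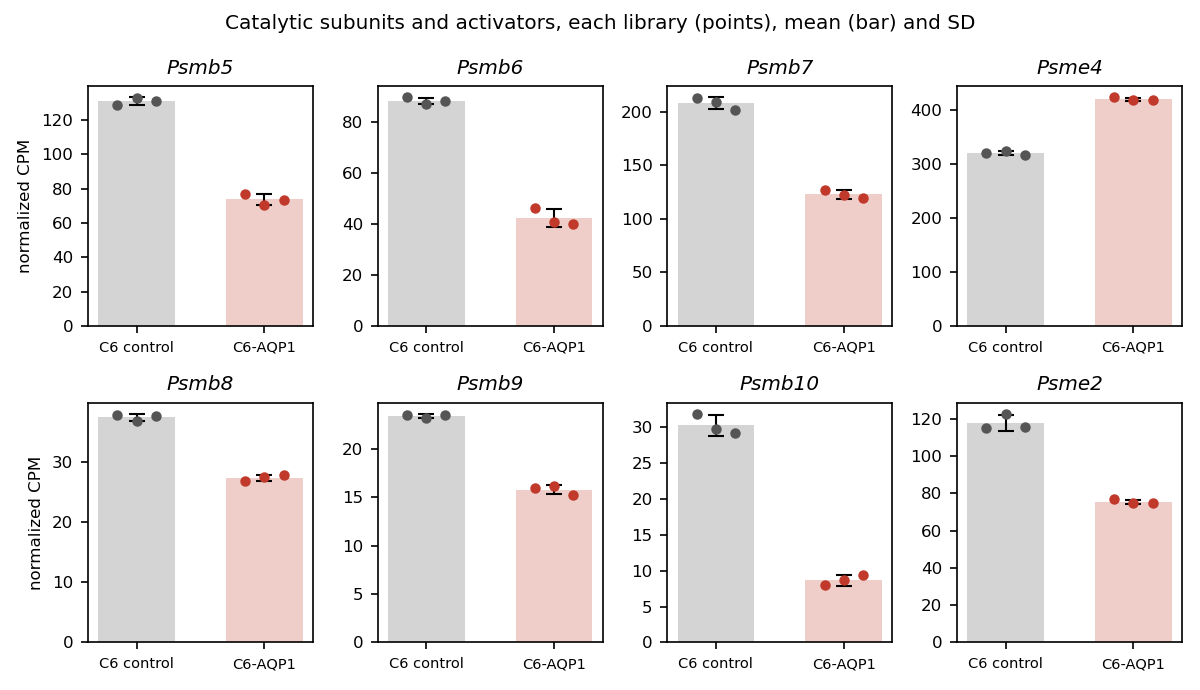
Normalized CPM of the constitutive cutting subunits Psmb5, Psmb6 and Psmb7, their inducible counterparts Psmb8, Psmb9 and Psmb10, and the activator genes Psme2 and Psme4. Points are libraries, bars are means and error bars are SDs of 3 libraries. In every panel the groups are apart, and only Psme4 is higher in C6-AQP1, at 419 against 320 CPM.

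The 3 immunoproteasome genes fell by unequal amounts. Psmb8 fell least, from 37.8, 36.8 and 37.7 CPM in control to 26.9, 27.5 and 27.8 in C6-AQP1 replicates (log2 fold change -0.44 ± 0.04 SE, adjusted p = 2.3e-09 in edgeR). Psmb9 went from 23.5, 23.2 and 23.5 CPM to 16.0, 16.1 and 15.2 (log2 fold change -0.57 ± 0.06 SE, adjusted p = 4.2e-09 in edgeR). Psmb10 went from 31.9, 29.7 and 29.2 CPM to 7.94, 8.65 and 9.46. It was 3.42-fold lower (log2 fold change -1.78 ± 0.07 SE, adjusted p = 2.5e-16 in edgeR), the greatest fall of all 47 genes, and ranked 126 from the lowest among the 12121 listed genes.

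Set against its constitutive counterpart within each library, which removes the scaling between libraries, Psmb8 and Psmb9 were higher and Psmb10 was lower in C6-AQP1 cells. The log2 ratio of Psmb8 to Psmb5 was -1.77, -1.85 and -1.80 in control and -1.52, -1.36 and -1.40 in C6-AQP1 replicates, higher by 0.38 on average (1.30-fold). That of Psmb9 to Psmb6 was -1.93, -1.91 and -1.91 in control and -1.53, -1.33 and -1.39 in C6-AQP1 replicates, higher by 0.50 (1.41-fold). The log2 ratio of Psmb10 to Psmb7 was -2.74, -2.81 and -2.79 in control and -4.003, -3.82 and -3.66 in C6-AQP1 replicates, which is 2.07-fold lower. For each ratio the 2 groups of libraries lay apart. The exact two-sided permutation test gave p = 0.10 for each, also 0.10 after adjustment over the 3 ratios, the smallest value that this design allows, so the shifts are larger than the spread between replicates but cannot pass 0.05.

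**Figure D4:**
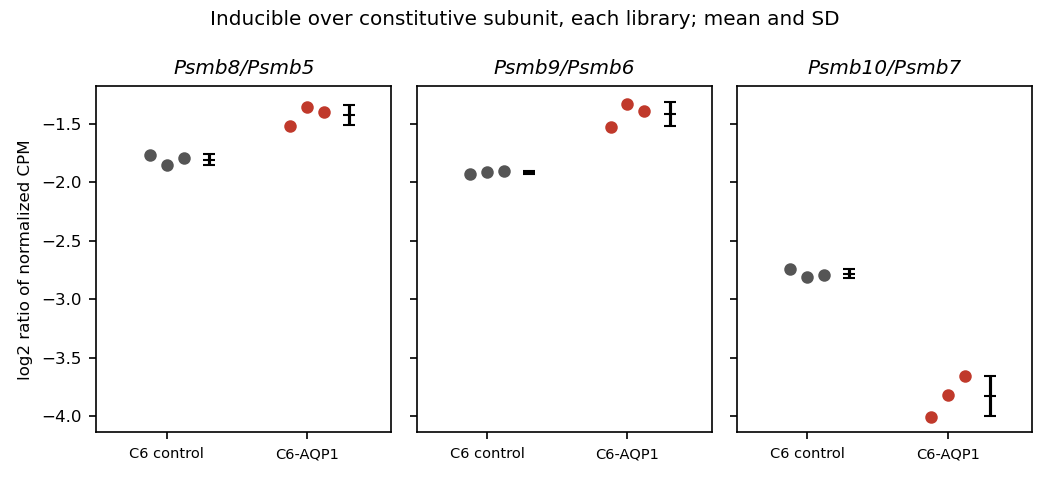
Log2 ratio of normalized CPM of each inducible subunit gene to the constitutive gene it replaces. Points are libraries, and the black marks give the mean and SD of 3 libraries. C6-AQP1 libraries lie above control libraries for Psmb8/Psmb5 and Psmb9/Psmb6, and below them for Psmb10/Psmb7, where the mean log2 ratio is -3.83 against -2.78.

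All 6 ATPase genes of the regulatory particle fell, with a median log2 fold change of -0.78. Psmc3 stood out from the others in size. It had 440, 444 and 445 CPM in control and 192, 199 and 197 in C6-AQP1 replicates (log2 fold change -1.17 ± 0.02 SE, adjusted p = 7.5e-22 in edgeR), or 2.26-fold lower. Psmc4, Psmc5, Psmc1 and Psmc6 followed with -0.84, -0.80, -0.76 and -0.70. Psmc2, with the smallest fall, had 202, 203 and 200 CPM in control and 125, 123 and 129 in C6-AQP1 replicates, a log2 fold change of -0.68. The naming rule also takes in Psmc3ip, which is not a proteasome subunit but a partner protein of the recombinases that pair homologous chromosomes. It went from 22.0, 22.9 and 22.0 CPM to 9.01, 10.8 and 10.9 (log2 fold change -1.10 ± 0.07 SE, adjusted p = 1.9e-12 in edgeR). Without it, 44 of 46 genes fell, 1 rose and the median log2 fold change was -0.68.

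The Psmd genes had smaller falls, and 13 of 14 passed the test, with a median log2 fold change of -0.55 over the group. Psmd14, the deubiquitinase of the lid that cuts ubiquitin chains from the substrate, fell most. It had 145, 143 and 137 CPM in control and 83.0, 83.7 and 85.4 in C6-AQP1 replicates (log2 fold change -0.75 ± 0.03 SE, adjusted p = 3.2e-16 in edgeR). The 8 lid genes, Psmd3, Psmd6, Psmd7, Psmd8, Psmd11, Psmd12, Psmd13 and Psmd14, all fell, with log2 fold changes from -0.75 to -0.44. The 3 base subunits without ATPase activity fell too, with -0.68 for Psmd2, -0.59 for the ubiquitin receptor Psmd4 and -0.39 for Psmd1. Relative to the lid genes, the 14 genes of the core rings were lower in C6-AQP1 cells. The difference of their mean log2 CPM was -0.05, -0.04 and -0.07 in control and -0.23, -0.28 and -0.31 in C6-AQP1 replicates. This ratio was formed after the values were seen and was not tested.

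The assembly chaperones of the base differed among themselves. Psmd5 had a log2 fold change of -0.66 and Psmd9 of -0.25 ± 0.03 (SE, adjusted p = 4.3e-07 in edgeR), the smallest fall that passed the test. Psmd10, known as gankyrin, was measured on few reads, with 27, 66 and 58 counts in control and 33, 40 and 41 in C6-AQP1 replicates. Its CPM were 1.21, 1.28 and 1.13 in control and 1.69, 0.969 and 0.969 in C6-AQP1 replicates, and replicate 1 was the only C6-AQP1 library above the controls. The log2 fold change of -0.08 ± 0.23 (SE, adjusted p = 0.75 in edgeR) could not be told from no change at this depth, and its sign turned to 0.05 without C6-AQP1 replicate 2 or 3. The chaperones of the core all fell. Psmg4 had 25.7, 24.7 and 24.6 CPM in control and 15.5, 13.6 and 12.7 in C6-AQP1 replicates (log2 fold change -0.86 ± 0.06 SE, adjusted p = 6.5e-11 in edgeR). Psmg2, Psmg1 and Psmg3 had -0.85, -0.69 and -0.47. Psmg3 was uneven, with 28.4, 24.0 and 22.8 CPM in the C6-AQP1 replicates.

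Of the 4 activator genes, 3 fell and Psme4 rose. Psme4 encodes PA200, a large single-chain cap of the core known for the breakdown of acetylated histones. It had 319, 324 and 317 CPM in control and 423, 417 and 417 in C6-AQP1 replicates. Every C6-AQP1 library was above every control library, 1.31-fold higher on average (log2 fold change 0.39 ± 0.02 SE, adjusted p = 5.3e-14 in edgeR). Of all listed genes, 40.8% rose. Since the core ring genes fell, Psme4 was 2.29-fold higher relative to their mean log2 CPM, a value given without a test because it was formed after the values were seen. Psme1 and Psme2 encode the chains of the interferon-inducible cap PA28. Psme2 went from 115, 123 and 116 CPM in control to 76.8, 75.02 and 74.7 in C6-AQP1 replicates (log2 fold change -0.65 ± 0.03 SE, adjusted p = 1.9e-14 in edgeR). Psme1 fell less, from 99.1, 99.9 and 101 CPM to 78.6, 77.5 and 76.7 (log2 fold change -0.37 ± 0.03 SE, adjusted p = 6.3e-11 in edgeR). Psme3, of the related nuclear cap, had a log2 fold change of -0.44, and the inhibitor Psmf1 of -0.34 ± 0.06 (SE, adjusted p = 1.6e-05 in edgeR).

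Within the C6-AQP1 libraries the shallowest one, replicate 1, was the least low for the core. The mean log2 CPM of the constitutive Psmb genes relative to control was -0.76, -0.86 and -0.90 in C6-AQP1 replicates 1, 2 and 3, and that of the Psma genes -0.73, -0.79 and -0.80. These differences between replicates were small beside those between groups. Reads of 6 genes, Psma3, Psmb6, Psmb8, Psmd12, Psme1 and Psme3, were in part divided by RSEM with other genes, since their counts were not whole in at least 1 library. RefSeq on GRCr8 names pseudogenes after 19 of the 47 genes. The spans of 13 overlap another gene on either strand, such as Tbp for Psmb1, Mlx for Psmc3ip and Emc9 for Psme1. The levels of these genes are therefore less certain. The reads were aligned to rn6, where these entries and spans were not checked.

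Genes that work with the proteasome under other names mostly fell too. The share that fell was 40.7% of all listed genes and 51.2% of those with a mean of at least 50 CPM. Most genes of the next 3 lists were above that level. Of 9 listed partners, 8 fell and 1 rose, with a median log2 fold change of -0.45. Pomp, the maturation factor that the core needs for its assembly, went from a mean of 164 CPM in control to 77.3 in C6-AQP1 cells, a log2 fold change of -1.09. Shfm1, the smallest lid subunit, had -1.08 ± 0.11 (SE, adjusted p = 4.6e-04 in edgeR). Both were uneven in C6-AQP1 replicates 1, 2 and 3, with 85.1, 72.8 and 74.0 CPM for Pomp and 46.2, 35.5 and 36.2 for Shfm1. The shallow replicate 1 was the highest of these for both genes. The deubiquitinases Uchl5 and Usp14 had log2 fold changes of -0.57 each. The single rise was Zfand5, with 0.46, a zinc finger protein known to stimulate the proteasome. Of 13 shuttle factors and p97 cofactors, 12 fell and 1 rose, with a median of -0.33. Vcp, which is p97 itself, had -0.50, its cofactor Ufd1l -0.73 and the shuttle Ubqln2 -0.57. The rise was Ddi2, the protease known to cut and activate Nfe2l1, with 0.62. Among 6 genes of ubiquitin and its activating enzymes, 5 fell and 1 rose. Rps27a, which encodes ubiquitin fused to a ribosomal protein, had a log2 fold change of -1.15 ± 0.10 (SE, adjusted p = 3.2e-04 in edgeR). It was uneven too, with 119, 96.0 and 95.2 CPM in C6-AQP1 replicates 1, 2 and 3. Uba1, the main activating enzyme, had a log2 fold change of -0.27.

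The listed regulators of proteasome genes went both ways, with 4 rises and 4 falls among 9, shares near the 40.8% and 40.7% of all listed genes that rose and fell. The small Maf genes Mafg and Mafk, whose products pair with Nfe2l1 and Nfe2l2, rose with log2 fold changes of 0.56 and 0.53. Nfe2l2 fell with -0.43 and its inhibitor Keap1 with -0.18. Nfe2l1, named here after its value was seen, had 0.14, from a mean of 137 to 151 CPM (SE 0.02, adjusted p = 1.3e-05 in edgeR).

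Listed antigen processing genes mostly fell, while listed interferon genes mostly rose. Of 10 listed class I antigen processing genes, 7 fell, none rose and 3 did not pass the test, with a median of -0.21. Of all listed genes 40.7% fell, and of those with a mean of at least 50 CPM 51.2%. Tapbp, which loads peptides on class I molecules, had a log2 fold change of -0.53, the trimming peptidase Erap1 -0.41, and the chaperones Calr and Canx -0.38 and -0.33. The peptide transporter genes Tap1 and Tap2, which lie beside Psmb9 and Psmb8 and were named after their values were seen, had -0.08 and -0.14 (adjusted p = 0.10 and 0.14 from edgeR). Of 16 interferon signalling and response genes looked for, 13 were listed, and Ifit1, Ifit3 and Mx1 were not. Of the 13, 12 rose and 1 fell, with a median of 0.36, where 40.8% of all listed genes rose. The list kept genes with a mean TPM above 1 in either group. A gene low in control could therefore be listed through its C6-AQP1 level alone, which favours rises among genes near that limit. The receptor gene Ifnar2 and the factor Irf9 had 0.56 and 0.55. Oas1a and Mx2 had 2.09 and 1.72 at low levels, from means of 1.10 and 0.562 CPM in control to 4.46 and 1.87 in C6-AQP1 cells. Whether these 2 genes were listed through their C6-AQP1 level alone was not tested. Irf1, a factor known to drive Psmb9, had 0.42 and was named after its value was seen.

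**Figure D5:**
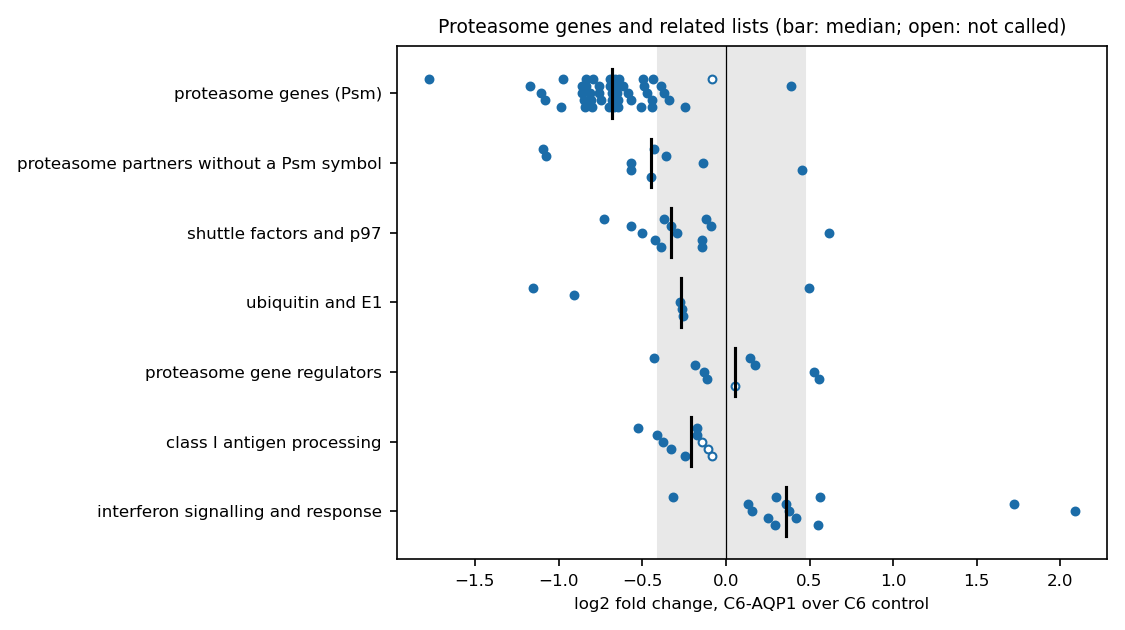
Log2 fold changes of the proteasome genes and of 6 related lists, C6-AQP1 over C6 control. Each point is a gene, open points did not pass the test, black bars are medians and the grey band is the interquartile range of all listed genes. The median is -0.68 for the proteasome genes, -0.45 for their partners, -0.21 for class I antigen processing and 0.36 for interferon genes.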

How the data were processed

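RNA of 3 C6-AQP1 and 3 C6 control libraries was sequenced. By the study's methods and the submitters' notes, reads were checked with FastQC (0.11.2), trimmed with Trimmomatic (0.36), aligned to rn6 with STAR (2.5.1b) and quantified with RSEM (1.2.29). The annotation version is not stated in these sources. The labels describe single reads and the methods paired-end reads. The authors deposited expected counts, not normalized, for the 12121 genes with a mean TPM above 1 in a group.

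Counts were rounded, scaled by TMM and fitted in edgeR (4.0.16, R 4.3.3), using its quasi-likelihood test with robust estimation and no covariates. Benjamini-Hochberg adjustment ran over all 12121 genes. A standard error is the log2 fold change over the square root of the test statistic. Alternatives were DESeq2 (1.42.0), limma-voom (3.58.1), other scalings, a filter on low counts, and leaving out libraries. Only the main edgeR fit, DESeq2 and limma-voom on all libraries were first tested on simulated data. Far fewer genes changed there than were called here, evenly up and down. The simulation therefore did not test the scaling at the extent of change seen here. Values of single libraries were compared by exact permutation tests.

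The genes, lists and tests were chosen with earlier results of these data known, and the promoter motifs and untested ratios after the values were seen. All cutting-site genes, the highest and lowest member of each group, members past 2-fold and members against their group are named with each library's value, and up to 4 called genes with the largest change from each related list, a few of which are not reported here. Replicates differed by more than sampling noise (chi-square over degrees of freedom, 2.15 to 4.31). Lengths of transcripts were not used, so levels were not compared between genes.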

Additional observations from a re-analysis of the deposited data

How the results depend on the processing

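Over the 13 alternatives, 45 proteasome genes fell and 1 rose in each, and 46 of the 47 genes kept their direction and call in all. The exception was Psmd10, whose log2 fold change, never past the threshold, was 0.05 without C6-AQP1 replicate 2 (0.045) and without replicate 3 (0.053), and -0.32 without C6-AQP1 replicate 1. Falls beyond 2-fold numbered 4 or 5, with 5 without C6-AQP1 replicate 1 and 5 without the shallow replicate 1 of both groups. Scaling by total counts moved the median of all genes from 0.00 to 0.05 and the group medians from -0.79 to -0.74 for Psma, from -0.83 to -0.78 for constitutive Psmb, from -0.57 to -0.52 for Psmb8 to Psmb10, from -0.80 to -0.75 for the 7 Psmc genes with Psmc3ip, from -0.55 to -0.49 for Psmd and from -0.47 to -0.42 for Psme to Psmg. It changed the calls over all genes to 5363 higher and 4540 lower, from 4948 and 4930. Leaving out 1 library in turn gave medians from -0.83 to -0.79 for the same 7 Psmc genes and from -0.55 to -0.44 for Psme to Psmg. Without the shallow replicate 1 of both groups, the median of Psme to Psmg was -0.55. The main fit did not treat libraries with the same replicate number as pairs. Deviations from the group mean correlated across genes at r = 0.332, -0.0294 and 0.10 for the numbers 1, 2 and 3. With the replicate block, 45 genes fell and 1 rose, and over all genes 5006 were higher and 4976 lower. Only C6-AQP1 replicate 1 correlated best with its own number, and replicate 1 was also the shallow library of both groups. These few correlations cannot settle if the libraries were paired. Depth limits Psmd10, with 27 to 66 counts per library.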
